A study of Mus musculus with 6 samples.

Results

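The genes described here are CC chemokines from both clusters on mouse chromosome 11. They are 10 of the 24346 gene symbols measured. They were chosen by symbol and position, 5 for the first cluster (Ccl2, Ccl7, Ccl11, Ccl12 and Ccl8) and 5 for the second (Ccl5, Ccl9, Ccl6, Ccl3 and Ccl4), without a threshold on expression. Tumor endothelial cells (ECs) were sorted as CD31+ CD45- cells from subcutaneous MC38 tumors, a mouse colon carcinoma line, and their mRNA was sequenced. The groups were 3 samples from wild-type (WT) mice of the C57BL/6 strain and 3 samples from Apelin-KO mice on that background, a genotype of the host that does not extend to the inoculated tumor cells. The sample labels also name saline for all 6 samples, so that both groups share it. The comparison asks which transcripts of tumor ECs differ with host Apelin, a secreted peptide that signals through the receptor APJ.

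CC chemokines are small secreted proteins that bind to G protein-coupled receptors on leukocytes and direct their migration. Tumor tissue holds several sources of them, among them macrophages, fibroblasts and ECs, and many of these genes are switched on by inflammatory cytokines through NF-kappaB and STAT factors. Proteins of the first cluster are best known for drawing monocytes through CCR2 and eosinophils through CCR3, while those of the second cluster act on macrophages and T cells, several of them through CCR1.

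On GRCm38, with the gene models of GENCODE mouse release M21, the members of the first cluster lie on the plus strand in the order Ccl2 (chr11:82035571-82037453), Ccl7 (chr11:82045712-82047525), Ccl11 (chr11:82057823-82062955), Ccl12 (chr11:82101845-82103400) and Ccl8 (chr11:82115185-82116799). After a gap of 1408979 bases, the second cluster holds Ccl5 (chr11:83525778-83530518), Ccl9 (chr11:83572919-83578636), Ccl6 (chr11:83587882-83593087) and Ccl3 (chr11:83647844-83649355) on the minus strand and Ccl4 (chr11:83662584-83664683) on the plus strand. Ccl8 has 3 exons and a transcript of 511 bases, the shortest of the 10. Its coding sequence was 64.4% identical to that of Ccl12, 62.9% to Ccl7, 62.9% to Ccl11 and 43.9% to Ccl2. These shares are of the whole alignment, gaps included. The coding sequence of Ccl2 has 444 bases against 291 in Ccl8, so the low share with Ccl2 comes in part from this length. Although the genes are related, no stretch of 75 bases, the length of the reads, was shared between any member and another gene.

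RefSeq upstream sequences were at hand for 5 of the 10 members (Ccl12, Ccl8, Ccl9, Ccl6 and Ccl3). The 250 bases before the start of Ccl8 and of Ccl12 are printed because these neighbors were the most alike of the 10 pairs, with 54.5% identity against 43.7% to 49.6% for the others, and those of Ccl6 because it had the smallest p-value of the members below. All are given 5′ to 3′ on the strand of the gene in GRCm38.p6, with capitals for the letters TATAAA, from chr11:82114935-82115184 (plus strand) for Ccl8, chr11:82101595-82101844 (plus strand) for Ccl12 and chr11:83593088-83593337 (minus strand) for Ccl6.

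Ccl8: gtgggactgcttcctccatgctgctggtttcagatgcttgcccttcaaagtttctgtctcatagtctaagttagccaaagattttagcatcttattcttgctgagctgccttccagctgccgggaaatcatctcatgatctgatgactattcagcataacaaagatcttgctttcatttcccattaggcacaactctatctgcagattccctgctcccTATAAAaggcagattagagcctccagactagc

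Ccl12: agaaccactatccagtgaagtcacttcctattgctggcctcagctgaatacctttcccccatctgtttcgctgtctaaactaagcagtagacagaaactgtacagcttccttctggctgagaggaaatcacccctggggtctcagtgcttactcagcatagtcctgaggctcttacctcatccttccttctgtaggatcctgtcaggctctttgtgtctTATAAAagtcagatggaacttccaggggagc

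Ccl6: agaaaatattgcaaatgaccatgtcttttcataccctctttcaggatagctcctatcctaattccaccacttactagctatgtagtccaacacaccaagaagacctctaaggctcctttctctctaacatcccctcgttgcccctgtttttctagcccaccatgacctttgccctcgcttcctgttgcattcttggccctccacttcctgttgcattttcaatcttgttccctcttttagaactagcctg

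The letters TATAAA stood at positions -32 to -27 before the start of Ccl8 and at -31 to -26 before that of Ccl12, where a TATA box is usually found. They were present on either strand in 12.3% of the 32536 upstream sequences of this length, and also in Ccl9 but not in Ccl6 or Ccl3. A kappaB motif (7.28% of all sequences) and the AP-1 letters TGANTCA (6.73%) were each found only before Ccl9, and the STAT letters TTCNNNGAA (7.04%) before none of the 5. Such matches describe the letters of these windows and are not evidence of binding.

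Levels are given as FPKM, which divides the fragments of a gene by a transcript length and by the size of the library, so they can be compared between genes. For short transcripts, such as the 511 bases of Ccl8, this comparison is less sure, since the length open to fragments depends on the fragment size. The depth of the samples was not given with the values, but the steps between low FPKM values correspond to about 8970000 to 10160000 reads per sample. Apln itself, the removed gene, stood at 432, 435 and 504 FPKM in WT and at 9.96, 17.5 and 24.3 FPKM in Apelin-KO samples, as the labels require. Its log2 fold change was 4.73, and it was the only one of the 10964 genes tested with an adjusted p-value under 0.05 (0.00912% of genes, limma with Benjamini-Hochberg adjustment). All 14 endothelial markers were present, with summed levels of 4328 to 5635 FPKM. Ptprc, the gene of CD45, against which the cells were sorted, was still read at 0.043 to 4.84 FPKM. The labels do not say whether the samples came from separate mice, so p-values measure only the spread between these samples.

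The 9 members with a mean of at least 1 FPKM were tested, on log2(FPKM + 1), and in all 9 the mean was higher in WT than in Apelin-KO ECs. Over all genes tested, 47.5% had a higher mean in WT. The group means differed by more than 2-fold on that scale in 7 members, against 1.27% of all genes in this direction. The median log2 fold change of the 9 was 1.37, against -0.01 over all genes. No member had an adjusted p-value under 0.05 in limma, while 5 had an unadjusted p-value under 0.05 with WT higher (5.17% of all genes) and none with WT lower (4.25%). All WT samples lay above all Apelin-KO samples in 4 members, Ccl8, Ccl9, Ccl6 and Ccl3, which held for 6.61% of all genes, and no member had all WT samples lower (7.77% of genes). These groups of 3 cannot give an exact permutation p below 0.1. With the variance of each gene taken alone, 1 member had an unadjusted p-value under 0.05, and 3.43% of all genes had one with WT higher. With the variance moderated as before and 1 sample left out, the number changed from 5 to 2 without WT 1 (3.23% of genes), 2 without WT 2 (2.86%), 2 without Apelin-KO 1 (4.5%) and 8 without WT 3 (6.73%), all with WT higher.

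**Figure D1:**
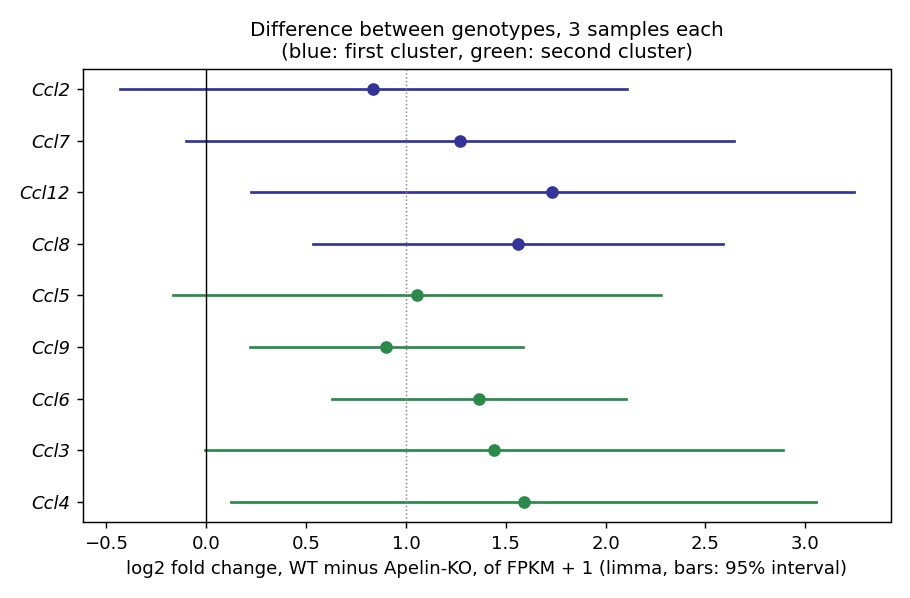
Log2 fold change of FPKM + 1 (horizontal axis, WT minus Apelin-KO) of the 9 members tested, with 95% intervals from limma on 3 samples per group. All points lie above 0, from 0.84 for Ccl2 to 1.73 for Ccl12, and the intervals of Ccl2, Ccl7, Ccl5 and Ccl3 reach 0.

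The genes differed in level. Ccl2 had the highest mean over the 6 samples (35.8 FPKM), followed by Ccl12 (22.9), Ccl7 (20.6), Ccl4 (17.9), Ccl8 (16.9), Ccl5 (12.8), Ccl3 (4.89), Ccl6 (4.0), Ccl9 (1.70) and Ccl11 (0.477). Taken within samples, Ccl2 was above Ccl12, Ccl5 above Ccl3, Ccl6 above Ccl9 and Ccl9 above Ccl11 in all 6. The other neighbors in that order (Ccl12, Ccl7, Ccl4, Ccl8 and Ccl5, and Ccl3 and Ccl6) changed places between samples. Ccl8 was lower than Ccl2 in all 6 samples and higher than Ccl9, Ccl6 and Ccl3 in all 6. Ccl2 stood at the 89.7th percentile of the genes listed and Ccl8 at the 81.7th.

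Ccl8 encodes a monocyte chemoattractant that in the mouse also acts on CCR8 of T cells. It was read at 17.4, 44.8 and 16.1 FPKM in WT 1, 2 and 3, against 7.36, 11.2 and 4.51 FPKM in the Apelin-KO samples 1, 2 and 3. The groups were apart, but the WT mean rested largely on WT 2, and the gap between WT 3 and Apelin-KO 2 was small against the spread within WT. The mean was 26.1 ± 16.2 FPKM (SD, n = 3) in WT and 7.69 ± 3.35 FPKM (SD, n = 3) in Apelin-KO, which is 29.4% of WT. On the log2 scale the difference was 1.56 ± 0.43 (SE), with a 95% interval from 0.54 to 2.59, an unadjusted p-value of 0.00869 and an adjusted p-value of 0.501 in limma with Benjamini-Hochberg adjustment. Without WT 2 it was 1.11, and its highest value with 1 sample left out was 1.84. The values correspond to about 55 reads in WT 1, 125 in WT 2 and 46 in WT 3, and to about 21, 35 and 13 in Apelin-KO 1, 2 and 3.

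The neighbors of Ccl8 that signal through CCR2 were Ccl2, Ccl7 and Ccl12. Ccl2, the main monocyte chemoattractant, stood at 42.9, 62.4 and 26.8 FPKM in WT 1, 2 and 3, against 10.6, 22.0 and 49.8 FPKM in the Apelin-KO samples 1, 2 and 3. The groups overlapped, since Apelin-KO 3 was the second highest of the 6 samples. Its mean was 44.0 ± 17.8 FPKM (SD, n = 3) in WT and 27.5 ± 20.1 FPKM (SD, n = 3) in Apelin-KO, or 62.4% of WT, and its log2 fold change was 0.84, with an interval from -0.43 to 2.11. The fold change was 0.32 without Apelin-KO 1 and 1.38 without Apelin-KO 3. Ccl7, a related chemoattractant of monocytes and eosinophils, stood at 20.7, 62.4 and 10.8 FPKM in WT and at 6.11, 11.96 and 11.6 FPKM in Apelin-KO samples. WT 2 was far above the rest, and WT 3 was below Apelin-KO 2 and Apelin-KO 3. Its log2 fold change was 1.27 ± 0.58 (SE) and fell to 0.61 without WT 2.

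Ccl12, the nearest neighbor of Ccl8 and a monocyte chemoattractant found in mice, stood at 30.7, 56.2 and 17.5 FPKM in WT and at 2.91, 19.2 and 10.6 FPKM in Apelin-KO samples. Only WT 3 and Apelin-KO 2 crossed. Its log2 fold change was 1.73 ± 0.64 (SE), with an unadjusted p-value of 0.0299 in limma, and 1.08 without Apelin-KO 1. Which member had the largest difference depended on the setting, since it was Ccl3 with a pseudocount of 0.1 FPKM (2.16), Ccl8 without Apelin-KO 1 (1.57) or without WT 1 (1.76), and Ccl4 without Apelin-KO 3 (2.14). Ccl11, the eosinophil chemoattractant eotaxin, was below the minimum for testing. It stood at 1.58, 0.383 and 0 FPKM in WT and at 0, 0.895 and 0 FPKM in Apelin-KO samples, which corresponds to about 14 reads in the highest sample, and it showed no order between the groups. Thus 4 of the 5 members of the first cluster were read at over 10 FPKM on average and the middle one of the 5, Ccl11, was close to 0.

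**Figure D2:**
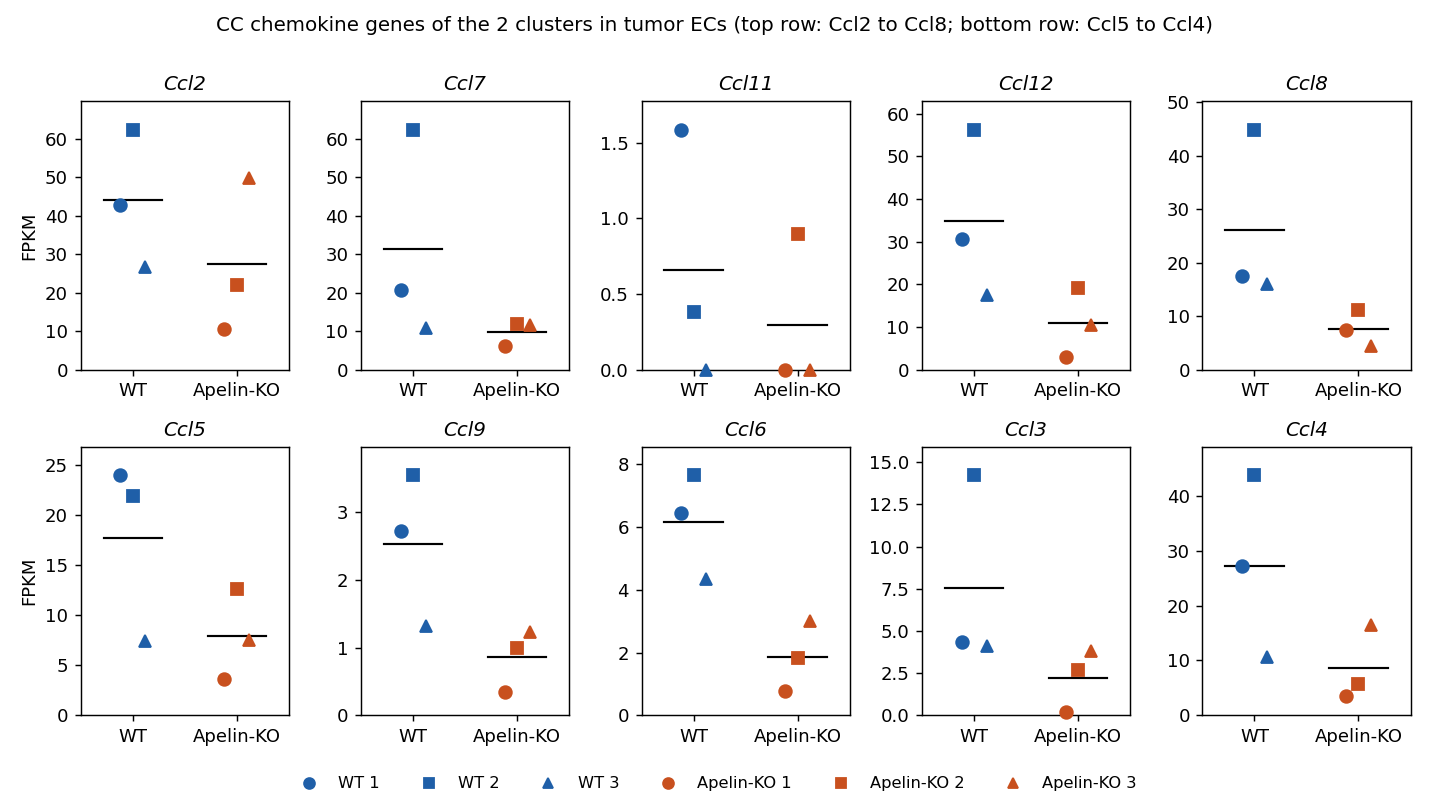
FPKM (vertical axis, own scale in each panel) of the 10 members in the 3 WT and 3 Apelin-KO samples, with lines for group means and 1 symbol per replicate number. WT 2 is the highest sample in 8 of the 9 tested members and Apelin-KO 1 the lowest in 8, while Ccl11 is at 0 in 3 samples.

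The second cluster holds Ccl3, Ccl4 and Ccl5, which attract macrophages and T cells. Ccl3, a macrophage inflammatory protein, stood at 4.37, 14.2 and 4.10 FPKM in WT and at 0.182, 2.66 and 3.79 FPKM in Apelin-KO samples. The groups were just apart, and the value of Apelin-KO 1 corresponds to about 1 read. Its log2 fold change was 1.44 ± 0.61 (SE), and 0.84 without that sample. Ccl4, which is 66.7% identical to Ccl3 in coding sequence, stood at 27.3, 43.7 and 10.6 FPKM in WT and at 3.52, 5.78 and 16.5 FPKM in Apelin-KO samples. Here Apelin-KO 3 was above WT 3. The log2 fold change was 1.59 ± 0.62 (SE), with an unadjusted p-value of 0.0375 in limma.

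Ccl5, a chemoattractant of T cells that is also made by them, stood at 23.9, 21.9 and 7.39 FPKM in WT and at 3.61, 12.6 and 7.49 FPKM in Apelin-KO samples. It was the only tested member with its highest value in WT 1, and WT 3 was the second lowest sample. The mean was 17.7 ± 9.02 FPKM (SD, n = 3) in WT and 7.90 ± 4.50 FPKM (SD, n = 3) in Apelin-KO, while its log2 difference was 1.06, with an interval from -0.17 to 2.28. It was 0.65 without Apelin-KO 1 and 1.56 without WT 3.

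Ccl6 and Ccl9, which bind CCR1 and are made mainly by myeloid cells, are rodent chemokines with 64.8% identity to each other. Ccl6 stood at 6.46, 7.64 and 4.33 FPKM in WT and at 0.778, 1.81 and 3.0 FPKM in Apelin-KO samples. All WT samples were above all Apelin-KO samples, and the standard error was the smallest of the members with a difference of more than 2-fold. The mean was 6.14 ± 1.68 FPKM (SD, n = 3) in WT and 1.86 ± 1.11 FPKM (SD, n = 3) in Apelin-KO. The log2 fold change was 1.37 ± 0.31 (SE) in limma and had an unadjusted p-value of 0.00316. Ccl9 stood at 2.73, 3.55 and 1.32 FPKM in WT and at 0.341, 1.0 and 1.24 FPKM in Apelin-KO samples, so the groups were apart by less than 0.1 FPKM. Its log2 fold change was 0.90 ± 0.29 (SE), with an unadjusted p-value of 0.0168. Over the 9 tested members, the adjusted p-values lay between 0.501 and 0.651 (limma, Benjamini-Hochberg over 10964 genes).

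To compare Ccl8 with its neighbors directly, the log2 ratio of Ccl8 to each of the other 8 tested members was taken within each sample, on FPKM + 1, and compared between genotypes. Against Ccl2 the ratio was -0.81 ± 0.40 (SD) in WT and -1.53 ± 1.46 in Apelin-KO samples, a difference of 0.73, with the lowest single ratio, -3.20, in Apelin-KO 3, which had the lowest ratio in every pair. Against Ccl12 the difference was -0.17, against Ccl7 0.29 and against Ccl4 -0.03. Against Ccl5 it was 0.51, against Ccl9 0.66, against Ccl6 0.20 and against Ccl3 0.12. In no pair were the genotypes apart, and the two-sided exact permutation p-values ran from 0.4 to 1.0, with all adjusted values at 1.0 over the 8 pairs. As the smallest p-value possible was 0.1, no difference could have passed, and these values do not show that Ccl8 and its neighbors changed alike. With 1 sample left out the difference against Ccl2 ran from -0.11 to 1.25 and the one against Ccl12 from -0.59 to 0.49. The sign turned on single samples for all neighbors except Ccl5 and Ccl9.

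**Figure D3:**
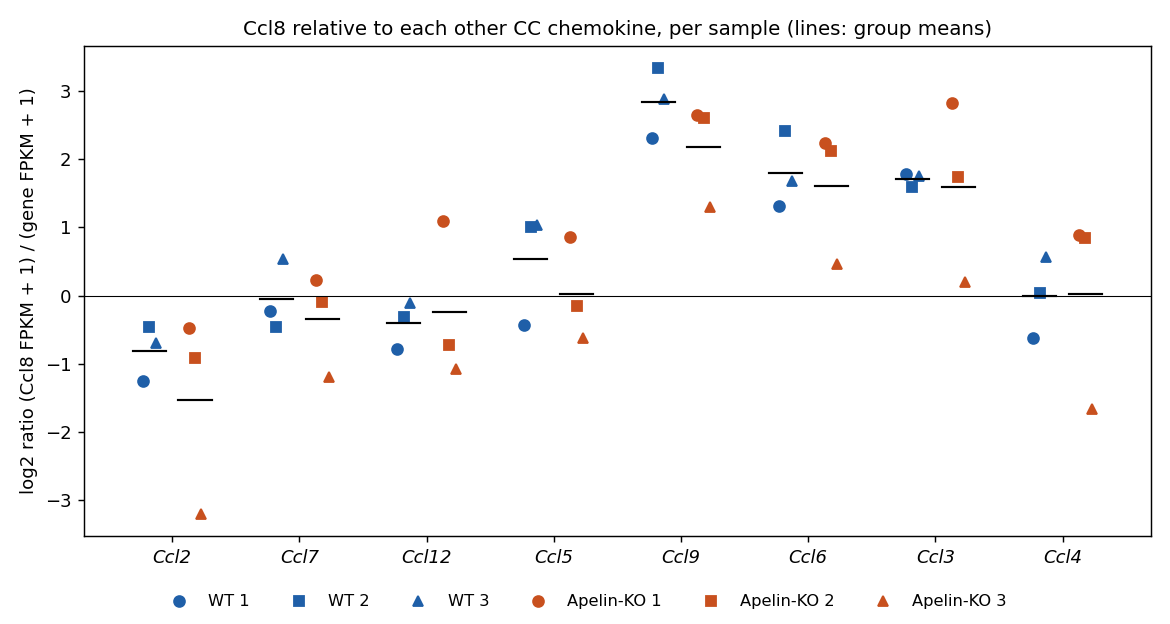
Log2 ratio of Ccl8 to each other tested member within each sample (vertical axis, FPKM + 1), WT on the left and Apelin-KO on the right of each gene, with lines for group means. WT and Apelin-KO points overlap for all 8 genes, and Apelin-KO 3 has the lowest ratio for every gene.

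The members varied together over the samples. WT 2 was the highest sample in 8 of the 9 tested members, against 18.4% of all genes, and Apelin-KO 1 the lowest in 8 of the 9, against 19.1%. The exceptions were Ccl5, highest in WT 1, and Ccl8, lowest in Apelin-KO 3. Summed over the first cluster, the levels were 113, 226 and 71.3 FPKM in WT 1, 2 and 3 and 27.0, 65.3 and 76.4 FPKM in Apelin-KO 1, 2 and 3. The second cluster gave 64.8, 91.0 and 27.7 FPKM in WT and 8.44, 23.9 and 32.0 FPKM in Apelin-KO samples. In both sums WT 3 was lower than Apelin-KO 3, so the summed levels overlapped between the groups.

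Markers of macrophages and monocytes were mostly highest and lowest in the same samples. All 15 were tested, all 15 had a higher mean in WT and 14 were more than 2-fold higher, and the median of the list was 1.24 on the log2 scale. In limma 8 of them had an unadjusted p-value under 0.05 with WT higher (5.17% of all genes), and the groups were apart in 1, a share near that of all genes (6.61%). WT 2 was highest in 13 and Apelin-KO 1 lowest in all 15. Their summed level was 792, 1341 and 359 FPKM in WT 1, 2 and 3 and 150, 439 and 378 FPKM in Apelin-KO 1, 2 and 3. Csf1r, the receptor for macrophage colony-stimulating factor, stood at 21.5, 34.2 and 9.19 FPKM in WT and 3.50, 12.7 and 8.63 FPKM in Apelin-KO samples, and C1qa, a complement subunit, had a log2 fold change of 1.37. In a bulk sample, fewer cells of a type and less RNA per cell cannot be told apart, and the part of macrophage RNA in the difference of the chemokines was not tested.

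Markers of the other cell types gave mostly smaller sums. Of 8 fibroblast markers 5 were tested, 4 of these had an unadjusted p-value under 0.05 with WT higher (5.17% of all genes), and the sums were 192 to 333 FPKM in WT and 126 to 198 FPKM in Apelin-KO. Dcn, a matrix proteoglycan of fibroblasts, was apart between the groups, with a log2 fold change of 0.86. Fap, a protease of activated fibroblasts that was too low to be tested, was apart the other way, at 0.043 to 0.133 FPKM in WT and 0.337 to 0.468 FPKM in Apelin-KO. Of 10 T and NK cell markers 2 were tested, and both were apart with WT higher (6.61% of all genes). Nkg7, a granule protein of cytotoxic cells, stood at 2.10, 4.56 and 4.12 FPKM in WT and at 0.526, 1.76 and 0.695 FPKM in Apelin-KO samples, with a log2 fold change of 1.21 and an unadjusted p-value of 0.00444 in limma. Lck, a kinase of T cells, had the highest level of the list in every sample, at 7.37 to 8.83 FPKM in all samples with a log2 fold change of 0.15. Cd3e, a subunit of the T cell receptor complex, was at 0.086 to 0.239 FPKM in all samples, and Cd8a was at 0 in Apelin-KO 1 and no higher than 0.301 elsewhere. Of 6 neutrophil markers 2 were tested, and most of the sum of the list was Mmp9, a matrix metalloproteinase, at 42.2, 36.1 and 18.9 FPKM in WT and 6.08, 19.4 and 16.4 FPKM in Apelin-KO samples. S100a8, a calcium-binding protein of neutrophils, had a log2 fold change of -0.35, and Cxcr2 was listed at 0 in all samples. Of 6 tumor cell markers only Krt20, a keratin of intestinal epithelium, was tested, at 6.41 to 20.6 FPKM with a log2 fold change of -0.52 and overlapping groups. Epcam was at 0 in 4 of the 6 samples and no higher than 0.264 FPKM in the others. Lck, Nkg7, Mmp9, Krt20, Fap and Cxcr2 were named after their values were seen.

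Markers of the sorted cells went the other way. All 14 endothelial markers had a lower mean in WT, their median difference was -0.23 on the log2 scale, and 4 of them had an unadjusted p-value under 0.05 in limma (4.25% of all genes with WT lower) and were apart between the groups (7.77%), among them Pecam1 (-0.33) and Cdh5 (-0.46), the adhesion proteins of EC junctions. Of 7 pericyte markers 5 were tested, with a median of -0.26, and Rgs5, a regulator of G protein signaling in pericytes, was lower in WT (-0.98). Whether these differences bear on the chemokines was not tested.

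**Figure D4:**
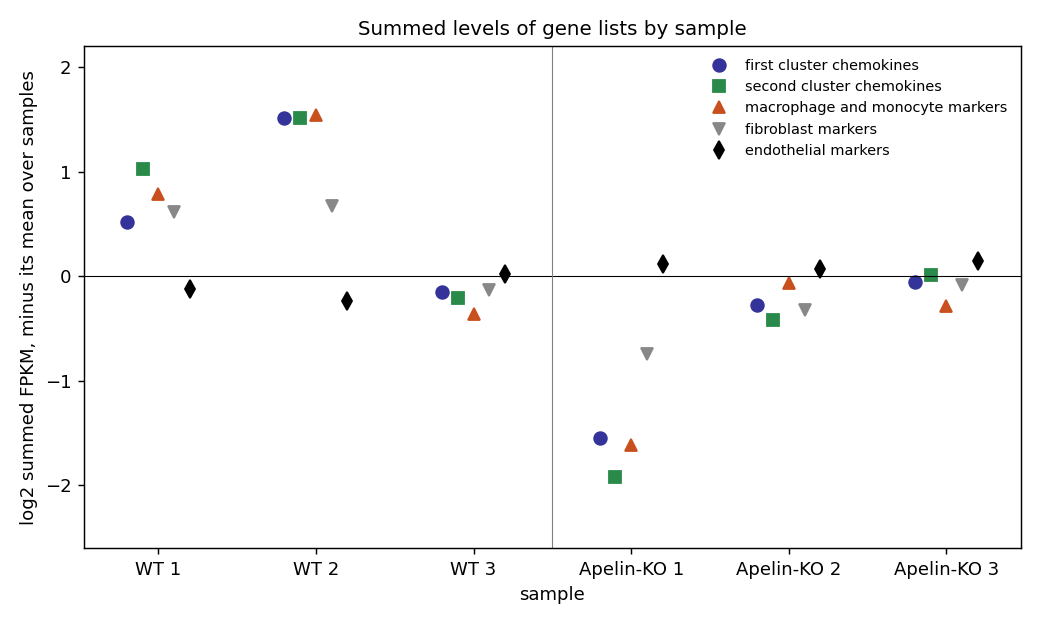
Log2 of the summed FPKM of each gene list in each sample (vertical axis), with its mean over the 6 samples subtracted. Both chemokine clusters and the macrophage and monocyte markers are highest in WT 2 and lowest in Apelin-KO 1, while the endothelial markers are lowest in WT 2.

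A list of CC chemokine receptors, scavenging receptors and a receptor-like gene, not all of which bind CC chemokines, held 15 genes, with 7 tested. In limma 2 of them had an unadjusted p-value under 0.05, both with WT higher (5.17% of all genes). Ccr1, which binds several products of the second cluster, stood at 4.70, 6.86 and 0.992 FPKM in WT and at 0.566, 1.4 and 1.2 FPKM in Apelin-KO samples, with a log2 fold change of 1.14 and overlapping groups. It was highest in WT 2 and lowest in Apelin-KO 1, as most members were. Ccr2, Ccr3 and Ccr8 were picked as receptors of the first cluster after their values were seen. Ccr2 had a log2 fold change of 0.71 with an unadjusted p-value of 0.148 in limma, Ccr3 was listed at 0 in all samples, and Ccr8 was listed at 0 in 4 samples and reached 0.582 FPKM in WT 2.

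Of the scavenging receptors, which bind chemokines without G protein signaling, Ackr4 was no higher than 0.111 FPKM in any sample and was not tested, and the other 3 were read at higher levels than Ccr1. Ackr3 stood at 160 to 219 FPKM over the samples with a log2 fold change of -0.01, Ackr2 at 51.1 to 88.3 FPKM with 0.17 and Ackr1 at 9.36 to 33.0 FPKM with -0.07. Ccrl2, a receptor-like protein of activated ECs, stood at 9.07 to 20.97 FPKM with 0.08. Their unadjusted p-values in limma ran from 0.407 to 0.946. The median log2 fold change of the 7 tested genes of this list was 0.17.

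The CC chemokines that are not among the 10 members, listed without regard to position, were mostly near 0. Of 12, 2 had a mean of at least 1 FPKM and 4 were listed at 0 in all samples. Ccl25, a chemokine of the gut and thymus, stood at 0.618 to 1.69 FPKM with overlapping groups. Ccl21a, a lymphatic chemokine that binds CCR7, was at 39.1 FPKM in Apelin-KO 2 and at 0.058 to 0.484 FPKM in the other 5 samples. Neither had an unadjusted p-value under 0.05 in limma.

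Inducers of CC chemokine transcription, a list of 28 cytokines, receptors and regulators, were described in the same way. Of the 24 tested, 0 had an unadjusted p-value under 0.05 in limma. Their log2 fold changes lay between -0.34 and 0.50, the highest for Il1b, and their median was -0.15, while the tested members had 0.84 or more. The groups were apart in 3 of them (12.5%), against 14.4% of all genes tested in either direction, so this share was near that of all genes. Nfkb2, an NF-kappaB subunit, was higher in WT by 0.20 on the log2 scale, and Rela, another subunit, was lower in WT (-0.15), as was Il4ra, the receptor of interleukin-4 (-0.21). The most abundant were Fos (-0.31), Nfkbia (-0.15), Zfp36 (-0.34) and Junb (-0.18), all immediate-early or feedback genes. With 3 samples per group, p-values over 0.05 do not show that the 24 tested genes did not differ. Tnf, Il1a, Il4 and Ifng were too low to be tested. Tnf stood at 1.47, 0.395 and 0.233 FPKM in WT and at 0, 0.416 and 0.15 FPKM in Apelin-KO samples. Il1a stood at 0.123 to 0.997 FPKM in WT and at 0.06 to 0.709 FPKM in Apelin-KO. Ifng was above 0 only in WT 2, and Il4 in no sample. Il1b, Tnf, Il1a, Il4 and Ifng were named after their values were seen.

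Genes of other families beside the clusters were picked by position alone, with a mean of at least 1 FPKM. Those around the first cluster, at distances of 647546 to 1255522 bases, were Tmem98, Myo1d, Zfp830 and Gm11423, and those around the second, at 19035 to 88954 bases, were Taf15, Mmp28, Wfdc17 and Heatr6. The median log2 fold change of the 8 was 0.15. Tmem98 was lower in WT (-0.50, unadjusted p-value 0.00967 in limma), and the other 7 had unadjusted p-values over 0.05. Wfdc17, a protease-inhibitor-like gene of activated macrophages on the Ccl4 side, stood at 15.4, 40.6 and 8.31 FPKM in WT and at 6.91, 11.9 and 9.27 FPKM in Apelin-KO samples, and so shared its highest and lowest sample with most members. Taf15, a transcription factor subunit on the other side, 19035 bases from Ccl5, stood at 0.971 to 1.77 FPKM with a log2 fold change of 0.18.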

How the data were processed

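From stranded mRNA libraries read from 1 end over 75 bases and mapped to mm10, the authors deposited 1 FPKM value per gene symbol and sample. The submitters' processing notes name bcl2fastq 2.17.1.14, TopHat2 2.1.1, Bowtie2 2.2.4, SAMtools 1.0 and Cufflinks 2.2.1. The annotation and the strand setting are not given in the sources used here, and the RefSeq span of Ccl4 overlaps Ccl3. Read counts were not used here.

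FPKM were used as deposited. The 10964 of 24346 genes whose mean reached 1 FPKM were compared on log2(FPKM + 1) between 3 WT and 3 Apelin-KO samples with limma 3.58.1 in R 4.3.3, by a two-sided moderated test without trend or block and with Benjamini-Hochberg adjustment over all genes tested. Fold changes on this scale understate those of low genes. Ratios within samples were compared by exact permutation tests (scipy 1.17.1). Alternatives changed the pseudocount, filter, scaling, variance model, block and the samples. The members and gene lists were chosen with earlier results of these data known. Named were all members, Apln, flanking genes, defining markers, and listed genes of at least 1 FPKM with an unadjusted p-value under 0.05, groups apart or the 4 highest means, except that 1 of the listed genes is not reported here by name.

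Depth was estimated from the steps of low FPKM values, assuming fragments of 200 bases. Between 68.5% and 73.3% of these values were whole reads to within 0.1 (20% expected by chance), so reads per gene are approximate. Upstream sequences are from RefSeq (GRCm38.p6), and identities from pairwise alignments in Biopython 1.88.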

Additional observations from a re-analysis of the deposited data

How the results depend on the processing

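Of 14 alternative settings, 5 leave the fold changes as they are by construction. In the other 9 every tested member had a higher level in WT (81 of 81 fits). Over all 14 no adjusted p-value in limma with Benjamini-Hochberg adjustment was under 0.05, with a range from 0.166 to 0.972. Ccl8 had a log2 fold change of 1.21 to 1.68 over the pseudocounts of 5 and 0.1 FPKM, and 1.11 to 1.84 with 1 sample left out. The number of members with an unadjusted p-value under 0.05 was 5, but 3 with a mean of at least 5 FPKM (6 members tested) and 1 with the variance of each gene alone, and it ran from 2 to 8 with 1 sample left out. The number of members with groups apart was 4, but 1 under that stricter filter (5.72% of genes). With 1 sample left out it ran from 4 to 8, but smaller groups separate more readily, and the share of all genes apart with WT higher rose from 6.61% to between 9.51% and 14.1%, the highest without WT 3.

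Deviations of same-numbered samples correlated at -0.14, 0.21 and -0.02. These values gave no clear sign that the replicate numbers pair the samples, but 3 samples per group cannot exclude it. With the replicate block, 6 members had an unadjusted p-value under 0.05 (4.82% of all genes with WT higher) and 0 an adjusted one. Ccl8 then had an unadjusted p-value of 3.27e-04 and an adjusted one of 0.497 (limma, Benjamini-Hochberg). The block cannot move the fold change of 1.56 in this balanced design.

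The differences in the ratio of Ccl8 to a neighbor changed sign with a pseudocount of 0.1 FPKM for Ccl3 (-0.48) and Ccl6 (-0.13) and with 5 FPKM for Ccl4 (0.001). With 1 sample left out they ran from -0.59 to 0.49 for Ccl12, -0.11 to 1.25 for Ccl2, -0.57 to 0.74 for Ccl3, -0.87 to 0.41 for Ccl4, -0.38 to 0.51 for Ccl6, -0.13 to 0.58 for Ccl7, 0.18 to 0.99 for Ccl5 and 0.22 to 0.93 for Ccl9. The cause was not tested. Low depth limits Ccl3 in Apelin-KO 1 (about 1 read) and Ccl11.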

Other observations

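Ccl21a, a chemokine of lymphatic endothelium, was at 39.1 FPKM in Apelin-KO 2 and at 0.177, 0.058 and 0.484 FPKM in WT 1, 2 and 3 and 0.078 and 0.18 FPKM in Apelin-KO 1 and 3. Lymphatic markers looked up after this value was seen did not single out that sample. Prox1, the lymphatic transcription factor, stood at 9.21 FPKM in Apelin-KO 2 and was highest in WT 1 (17.7 FPKM). Lyve1, a hyaluronan receptor, stood at 43.6 FPKM in Apelin-KO 2 and was highest in WT 1 (84.8 FPKM). Flt4, the receptor of lymphatic growth factors, stood at 119 FPKM in Apelin-KO 2 and at 83.1 to 139 FPKM in the others.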
